A study of Homo sapiens with 6 samples.

Results

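The genes described here encode 9 enzymes that make serine, pass its side-chain carbon to folate and spend that carbon on thymidylate. They were taken by symbol from a table of 20532 genes: PHGDH, PSAT1 and PSPH for serine synthesis, SHMT1, SHMT2, MTHFD1, MTHFD2 and MTHFD1L for folate reactions, and TYMS for thymidylate. Each symbol matched 1 row, and all 9 passed the filter on low counts that left 13710 genes. The study measured messenger RNA in MDA-MB-231 M3 cells, a human breast cancer cell line that metastasises to bone, with 3 control libraries and 3 libraries from cells in which PRMT1, the main arginine methyltransferase, was knocked down with a small interfering RNA (siPRMT1). The labels call the controls untreated or control cells and do not say whether they were transfected, so knockdown and transfection cannot be told apart. All libraries come from 1 cell line. The labels call the samples of a group biological replicates without naming separate cultures, so a p-value here measures the spread among these libraries alone, which may be technical.

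Serine is made from the glycolytic intermediate 3-phosphoglycerate by the dehydrogenase PHGDH, the aminotransferase PSAT1 and the phosphatase PSPH in turn. Serine hydroxymethyltransferases, SHMT1 in the cytosol and SHMT2 in mitochondria, then move a carbon from serine to tetrahydrofolate and release glycine. In mitochondria MTHFD2 oxidises this carbon unit and MTHFD1L releases it as formate, and in the cytosol the trifunctional enzyme MTHFD1 takes formate up again for purine and thymidylate synthesis. Proliferating cancer cells commonly rely on the mitochondrial arm, and several of these genes are known targets of the stress-induced transcription factor ATF4.

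The promoters of PSAT1, MTHFD2 and TYMS are shown because these genes fell after knockdown (MTHFD2 only without the GC and length correction described with the results), and a site in MTHFD1L because it was the only match to an ATF4 element among the promoters searched. Sequences are from RefSeq (GRCh38.p14), which held promoters for 7 of the 9 genes and none for PSPH or SHMT2 in the table used. All are printed 5′ to 3′ on the plus strand. The promoters of PSAT1, MTHFD2 and TYMS each end 10 bases before the annotated start and have in capitals every match to CCAAT, to the GC box GGGCGG, or to either one's reverse complement.
PSAT1, chr9:78296875-78297114: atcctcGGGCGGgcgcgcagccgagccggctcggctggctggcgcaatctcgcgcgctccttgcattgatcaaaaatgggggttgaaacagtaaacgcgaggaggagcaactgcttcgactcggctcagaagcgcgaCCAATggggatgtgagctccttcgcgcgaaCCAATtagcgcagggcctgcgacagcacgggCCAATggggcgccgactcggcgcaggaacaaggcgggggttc
MTHFD2, chr2:74198365-74198604: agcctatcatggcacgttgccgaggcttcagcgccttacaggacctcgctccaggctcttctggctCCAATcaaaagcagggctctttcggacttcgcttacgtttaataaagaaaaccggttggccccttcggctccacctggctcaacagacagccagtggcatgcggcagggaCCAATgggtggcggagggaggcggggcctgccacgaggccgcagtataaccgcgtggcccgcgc
TYMS, chr18:657403-657642: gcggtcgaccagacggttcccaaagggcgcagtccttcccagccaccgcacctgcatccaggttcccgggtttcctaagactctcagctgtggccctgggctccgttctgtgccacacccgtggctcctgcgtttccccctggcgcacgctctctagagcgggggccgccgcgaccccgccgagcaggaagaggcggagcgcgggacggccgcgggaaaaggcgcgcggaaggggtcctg
MTHFD1L, chr6:150866346-150866375, ATF4 element in capitals: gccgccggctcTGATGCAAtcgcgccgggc

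The search covered the 250 bases before each start, on both strands. PSAT1 had 3 CCAAT boxes, at 113, 83 and 52 bases before the start, and MTHFD2 had 2, at 184 and 74 bases, whereas the TYMS window held none of the 6 motifs searched. CCAAT occurred in the promoters of 6 of the 7 genes and in 32.01% of the 35116 promoters in the RefSeq table, and GGGCGG in 3 of the 7 genes and in 42.64% of promoters. A gene was counted when any of its promoters matched, whereas each percentage is over single promoters, so these are unlike units. The E-box CACGTG was found in MTHFD1 and in MTHFD1L (6.34% of promoters), the ATF4 element TGATGNAA only in MTHFD1L (3.14%), TATAAA only in PHGDH (10.72%) and the E2F element TTTGGCGC in none of the 7 (0.55%). MTHFD1L has 4 annotated starts in the table, and the ATF4 element lies 129 bases before the first listed; there it falls in the first exon of another annotated MTHFD1L transcript. A match describes the letters in the window and is not evidence of binding.

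Total counts ranged from 16968563 to 20545995 per library, of which the 9 genes took between 0.0595% and 0.0612% in the controls and between 0.0518% and 0.0523% in the siPRMT1 libraries. Mitochondrial genes took 5.001% to 5.09% of counts in the controls and 8.64% to 8.74% after knockdown, and the part of this shift in the results was not tested. PRMT1 itself had 3160, 2991 and 3072 reads in the controls against 193, 218 and 181 after knockdown. In CPM, a gene's share of its library's counts with TMM scaling, it fell from 146 ± 2.93 to 11.9 ± 0.0607 (mean ± SD, n = 3 each), 12.3-fold. The libraries contained VIM, a mesenchymal marker of this line, at 1817 and 2368 CPM on average and nearly no reads for the hormone receptor genes ESR1 and PGR. ERBB2, listed with these 2 genes, rose from 61.3 to 72.9 CPM, but passed as lower with the GC and length correction (-0.15). The summed list of 9 epithelial and line markers was higher after knockdown (7889 to 7965 against 5092 to 5169 CPM), though some of its members fell. Of the markers of other cell types, the leukocyte gene PTPRC had at most 4 reads in a library and CDH5 of endothelium at most 1. The summed leukocyte list was higher after knockdown (377 to 383 against 204 to 208 CPM), carried by CD68 (201 and 372 CPM), a lysosomal gene that other cells express too. CD14 of that list rose from 4.32 to 8.27 CPM, but passed as lower with the correction (-0.31). Summed markers of bone cells were 22.7 to 24.8 against 63.0 to 69.2 CPM, mostly RUNX2, which fell from 61.5 to 16.5 CPM, while BGLAP rose from 1.11 to 3.96 CPM. Those of endothelium were 20.3 to 21.2 against 25.4 to 26.4 CPM, mostly PECAM1, which did not pass (21.03 and 20.03 CPM), while KDR fell from 4.41 to 0.544 CPM. Those of fibroblasts were 22.9 to 27.1 against 10.1 to 12.7 CPM, mostly COL1A1, which rose from 7.05 to 22.9 CPM, while LUM (2.49 to 1.27 CPM) and PDGFRB (1.71 to 0.871 CPM) fell. With the GC and length correction, VIM passed as lower (log2 fold change -0.18) and PECAM1 as higher (0.48), and CD68 (0.042) and LUM (-0.11) did not pass. RUNX2 (-1.12), BGLAP (0.55), KDR (-2.40), COL1A1 (1.43) and PDGFRB (-1.04) kept their directions with it. The part of these markers in the results was not tested. In bulk RNA, fewer cells that express a gene and less RNA per cell cannot be told apart.

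Of the 9 enzyme genes, 4 rose (PHGDH, SHMT1, SHMT2, MTHFD1), 4 fell (PSAT1, PSPH, MTHFD2, TYMS) and MTHFD1L did not pass. The threshold was an adjusted p of 0.05 (quasi-likelihood test of edgeR, Benjamini-Hochberg over all tested genes), and 44.3% of all tested genes passed it upwards and 45.0% downwards, so that the number of changed enzymes is near the background. The median log2 fold change (siPRMT1 minus control) over the 9 was -0.11, and over all tested genes -0.0082. The groups did not overlap in CPM for any of the 9, as for 89.1% of tested genes. Neighbouring enzymes went in opposite directions: the first enzyme of serine synthesis rose and the next steps fell, though the rise did not pass after a GC and length correction, and SHMT2 rose while MTHFD2 fell, though MTHFD2 was higher after that correction.

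CPM are shares of a library, so the scaling between libraries matters. With library size alone in place of TMM, the median of all tested genes was -0.325 and 4588 genes rose and 7593 fell, against 6078 and 6165 with TMM. Fold changes also moved with base composition and transcript length: the median was -0.78 for the 5132 tested genes with a canonical transcript below 45% GC and 0.80 for the 4262 above 55%, and it was 0.79 below 2000 bases and -0.70 above 4000. Values after a correction for both properties are therefore given beside the uncorrected ones; their part in each result was not tested. With the correction 4 of the 9 genes passed upwards (SHMT1, SHMT2, MTHFD1, MTHFD2) and 3 downwards (PSAT1, PSPH, TYMS), beside 40.0% and 40.4% of all genes.

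**Figure D1:**
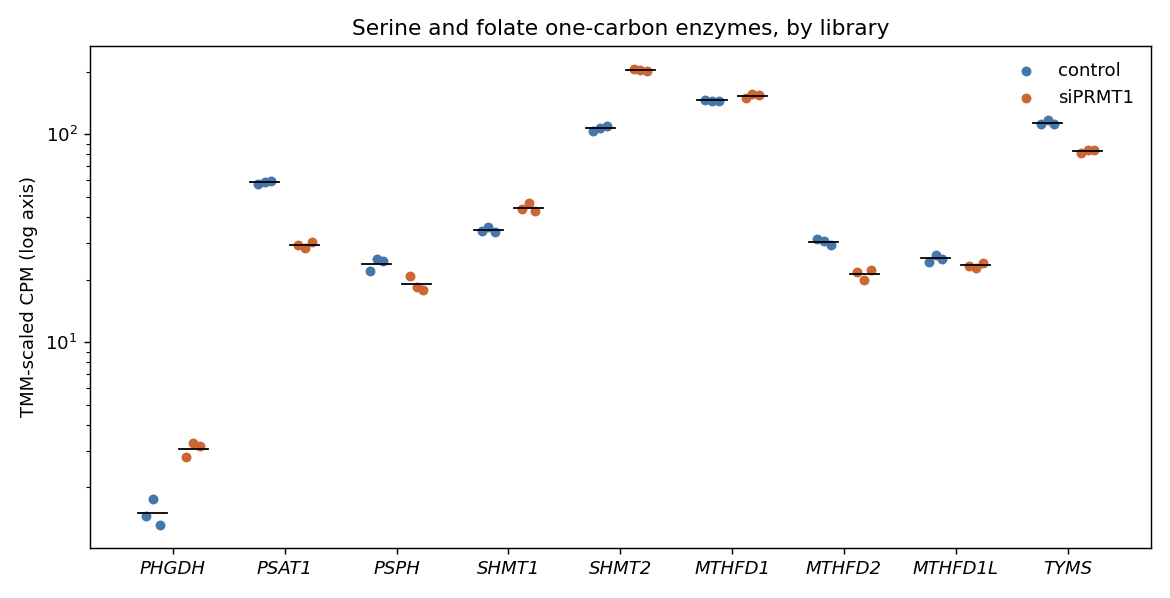
TMM-scaled CPM of the 9 enzyme genes in each of the 6 libraries (log axis; points are libraries, bars are means of 3). SHMT2 and PHGDH lay higher and PSAT1, MTHFD2 and TYMS lower in all 3 siPRMT1 libraries, and PHGDH lay far below the others in both groups.

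Serine synthesis was split between its first step and those after it. PHGDH (ENSG00000092621; hg38, chromosome 1, 119648411 to 119744213, plus strand), which commits carbon to the pathway, had only 32, 35 and 28 reads in the controls and 45, 60 and 48 after knockdown, or 1.46, 1.75 and 1.32 against 2.79, 3.26 and 3.15 CPM. All siPRMT1 libraries were above all controls, yet the gene was scarcely expressed in either group. PHGDH rose by 1.03 on the log2 scale (SE 0.186; edgeR adjusted p = 6.6e-08), the widest error of the 9. After the GC and length correction it was 0.11 (SE 0.185; adjusted p = 0.603) and no longer passed; the canonical transcript has 58.1% GC and 1866 bases.

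PSAT1 (ENSG00000135069; chromosome 9, 78297125 to 78330093, plus strand), which transfers the amino group from glutamate, had the largest fall of the 9 with TMM scaling (with the GC and length correction TYMS fell further). It had 58.0, 59.2 and 59.7 CPM in the controls and 29.2, 28.5 and 30.3 CPM after knockdown, groups that lay far apart relative to their spread. PSAT1 had a log2 fold change of -1.01 (SE 0.0442; edgeR adjusted p = 2.05e-80), a 2.01-fold drop, and it was -1.33 with library size alone and -0.81 with the correction. PSPH (ENSG00000146733; chromosome 7, 56011051 to 56051467, minus strand), which removes the phosphate in the last step, was at 22.0, 25.0 and 24.6 CPM in the controls and at 20.7, 18.4 and 17.8 CPM in the siPRMT1 libraries. Its groups were separated by a narrow gap, and it fell by 0.33 on the log2 scale (SE 0.0606; adjusted p = 1.45e-07 by edgeR), or by 0.56 with the correction. GENCODE lists 4 pseudogene copies named after PSAT1 and 1 after PSPH, none of them in the deposited table, so reads from copies may have been lost or added.

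Within each library, where scaling cancels, PSAT1 had 39.7, 33.9 and 45.3 times as many reads as PHGDH in the controls and 10.4, 8.73 and 9.60 times as many after knockdown. This is a difference of -2.04 on the log2 scale (exact two-sided permutation test, p = 0.1, the smallest that 3 against 3 allows; adjusted p = 0.113 over 9 ratios). For PSPH over PHGDH the difference was -1.36. After the GC and length correction these differences were -0.92 and -0.66, in the same direction.

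The serine hydroxymethyltransferases both rose, the mitochondrial one by more. SHMT2 (ENSG00000182199; chromosome 12, 57229573 to 57234726, plus strand), the main source of one-carbon units in many proliferating cells, went from 103, 108 and 109 CPM to 207, 205 and 201 CPM. The libraries of each group were close together and the groups lay 1.92-fold apart in their means. It rose by 0.94 on the log2 scale (SE 0.0253; edgeR adjusted p = 6.19e-149), 0.62 with library size alone and 0.25 (SE 0.0248) with the correction, passing each time.

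SHMT1 (ENSG00000176974; chromosome 17, 18327873 to 18363451, minus strand), the cytosolic form, went from 34.2, 35.9 and 33.8 to 43.5, 46.7 and 43.0 CPM, without overlap. It rose by a log2 fold change of 0.36 (SE 0.0450; adjusted p = 9.58e-15 by edgeR), but the value was 0.045 with library size alone, which did not pass (adjusted p = 0.34), and 0.091 with the correction (adjusted p = 0.0487). SHMT1 shares 197 exonic bases with SMCR8 on the opposite strand, which fell (-1.36, -0.92 corrected). Without a stated strand setting for the counting, reads there cannot be told apart. The same holds for SHMT2, which shares 352 exonic bases with ENSG00000276727 and 33 with NDUFA4L2 on the opposite strand. ENSG00000276727 was not among the counted genes, and NDUFA4L2 had too few reads to test. The ratio of SHMT2 to SHMT1 reads was 3.02, 3.00 and 3.23 in the controls and 4.76, 4.39 and 4.69 after knockdown, a log2 difference of 0.58 (0.16 with the correction).

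Of the 3 MTHFD genes, 1 fell, 1 did not pass and 1 rose slightly. MTHFD2 (ENSG00000065911; chromosome 2, 74186172 to 74214741, plus strand), the mitochondrial dehydrogenase and cyclohydrolase that acts directly after SHMT2, was at 31.4, 30.7 and 29.2 CPM in the controls and at 21.7, 19.8 and 22.1 CPM in the siPRMT1 libraries. The knockdown libraries were all below the controls. It fell by 0.53 on the log2 scale (SE 0.0556; adjusted p = 1.36e-19 by edgeR) and by 0.84 with library size alone, but it was higher with the GC and length correction (0.25, SE 0.0546; adjusted p = 4.68e-05). Its canonical transcript has the lowest GC content (41.0%) and the greatest length (4403 bases) of the 9. On the opposite strand, exons of SLC4A5 overlap those of MTHFD2 by 1324 bases and those of ENSG00000264324 by 295 bases; both genes rose (0.70 and 1.33; 1.27 and 1.42 corrected). GENCODE also lists 7 pseudogenes named after MTHFD2, none in the deposited table.

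MTHFD1L (ENSG00000120254; chromosome 6, 150865679 to 151101887, plus strand), the mitochondrial formate producer, was at 24.4, 26.4 and 25.2 CPM in the controls and at 23.3, 22.8 and 24.1 CPM after knockdown. The groups nearly touched. Its log2 fold change of -0.11 (SE 0.0564) did not pass (adjusted p = 0.0525 by edgeR; -0.11 and 0.0553 with the correction), and it passed with 6 of 16 other settings. Among these were library size alone (-0.43) and the fits without control replicate 1 (edgeR adjusted p = 0.026) or without siPRMT1 replicate 3 (0.0477).

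MTHFD1 (ENSG00000100714; chromosome 14, 64388031 to 64463457, plus strand), the cytosolic trifunctional enzyme, was at 147, 144 and 145 CPM in the controls and at 149, 156 and 154 CPM after knockdown. The groups were separate by a small margin, and MTHFD1 rose by 0.072 with TMM (SE 0.0252; adjusted p = 0.00488 by edgeR) and by 0.18 with the correction, but it was lower with library size alone (-0.24, adjusted p = 3.94e-20) and did not pass with upper-quartile scaling (0.025). A direction for MTHFD1 thus depends on the scaling. Its exons share 1556 bases with ENSG00000272909, 186 with ENSG00000258824 and 178 with ZBTB25, all on the opposite strand. Of these only ZBTB25 was among the counted genes, and it fell (-0.22, 1.01 corrected). Part of the reads of MTHFD1 may therefore belong to these genes.

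The SHMT2 to MTHFD2 ratio was the largest shift among the ratios of mitochondrial and cytosolic folate enzymes. SHMT2 had 3.29, 3.51 and 3.74 times the reads of MTHFD2 in the controls and 9.56, 10.4 and 9.10 times after knockdown. The log2 difference was 1.46 (exact two-sided permutation p = 0.1, the smallest possible), but -0.0038 with the GC and length correction. The MTHFD2 to MTHFD1 ratio went from 0.214, 0.212 and 0.201 to 0.145, 0.127 and 0.144 (log2 difference -0.59, 0.072 corrected). The MTHFD1L to MTHFD1 ratio went from 0.166, 0.183 and 0.174 to 0.157, 0.147 and 0.156 (-0.18, -0.29 corrected), a small shift without overlap. For MTHFD1L over MTHFD2 the difference was 0.41, and -0.36 with the correction.

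**Figure D2:**
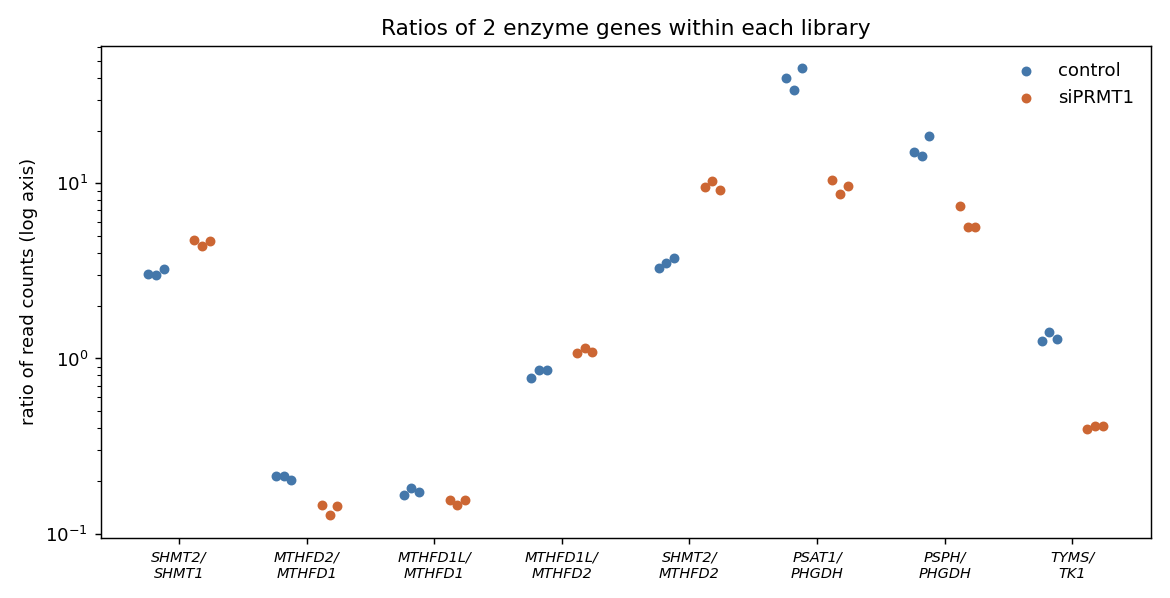
Ratios of the read counts of 2 genes within each library (log axis; each point is 1 library), which do not depend on scaling between libraries. SHMT2/MTHFD2 lay between 3.29 and 3.74 in the controls and between 9.10 and 10.4 after knockdown, and TYMS/TK1 between 1.25 and 1.42 in the controls and between 0.396 and 0.414 after knockdown. The ratios shown have no GC and length correction. With it the log2 difference was -0.0038 in place of 1.46 for SHMT2/MTHFD2, and -0.90 in place of -1.70 for TYMS/TK1.

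TYMS (ENSG00000176890; chromosome 18, 657653 to 673578, plus strand), thymidylate synthase, which methylates dUMP with the folate-bound carbon, was at 112, 117 and 112 CPM in the controls and at 81.6, 83.7 and 84.2 CPM after knockdown. The groups were well apart. It fell by 0.45 on the log2 scale (SE 0.0303; adjusted p = 7.09e-42 by edgeR), by 0.77 with library size alone and by 0.86 with the correction. Its exons share 967 bases with ENOSF1 on the opposite strand, which went from 95.4 ± 1.77 to 87.5 ± 2.71 CPM (-0.12, 0.60 corrected), so part of the reads of either gene may belong to the other.

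TK1, the kinase that salvages thymidine, rose (1.24), but did not pass with the correction (0.043; edgeR adjusted p = 0.137), and the TYMS to TK1 ratio went from 1.25, 1.42 and 1.29 to 0.396, 0.409 and 0.414 (-1.70, -0.90 corrected). Of the 9 ratios computed, 8 are given here; all 8 were separate between the groups and each had an exact permutation p = 0.1 and adjusted p = 0.113.

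**Figure D3:**
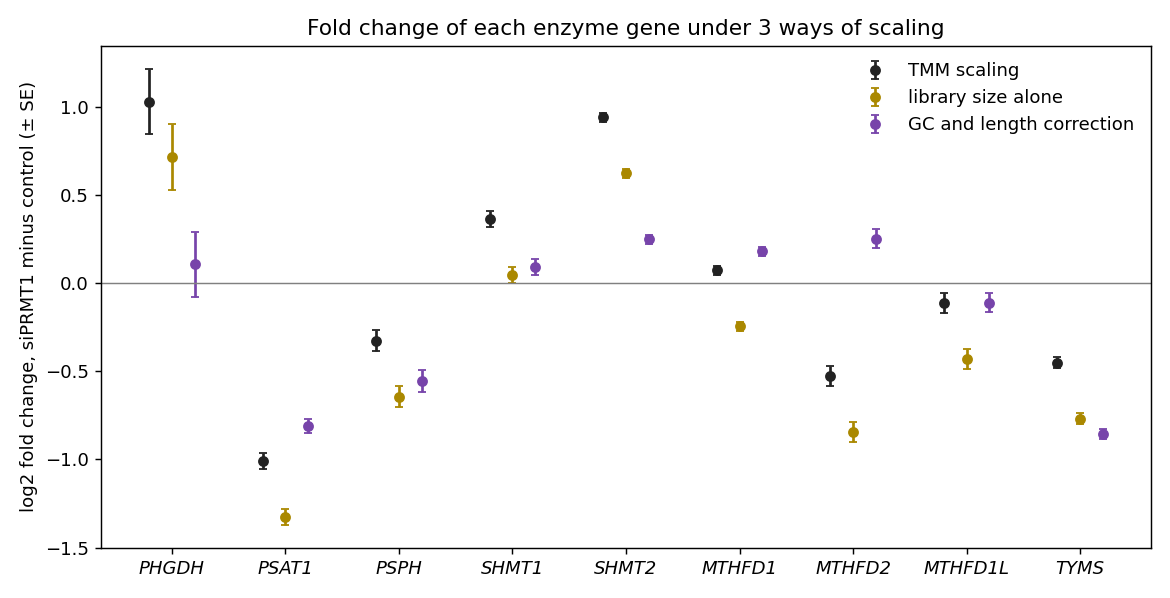
Log2 fold change (siPRMT1 minus control, ± SE) of each gene with TMM scaling, with library size alone and after the GC and length correction. PSAT1, PSPH and TYMS lay below 0 and SHMT2 above 0 in all 3, while MTHFD1 and MTHFD2 changed sign and PHGDH fell to 0.11 with the correction.

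Per kilobase of canonical transcript, the order of control levels was TYMS (70.5 CPM per kilobase), SHMT2 (49.5), MTHFD1 (46.1), PSAT1 (26.7), SHMT1 (13.7), PSPH (12.1), MTHFD1L (7.33), MTHFD2 (6.91) and PHGDH (0.809). MTHFD1L and MTHFD2 overlapped between libraries and the other neighbours did not. TYMS had a control level above 92.6% of tested genes, whereas PHGDH was above 11.3%. After knockdown SHMT2 (94.8 ± 1.27) stood above TYMS (51.6 ± 0.865), and SHMT1 (17.6 ± 0.804) above PSAT1 (13.3 ± 0.410). With the longer gene lengths of the deposited table the control order began with TYMS (47.0), PSAT1 (26.7) and SHMT2 (23.2), and PHGDH was again the lowest (0.164).

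The genes whose 6 log2 CPM values, centred on the control mean, lay closest to those of each enzyme were DEF6 for PHGDH (root mean square difference 0.031), LHFPL5 for PSAT1 (0.018), CHST11 for PSPH (0.050), APTX for SHMT1 (0.020), RNH1 for SHMT2 (0.0056), DCAF8 for MTHFD1 (0.0094), TPST1 for MTHFD2 (0.024), MAP3K14 for MTHFD1L (0.016) and CEP78 for TYMS (0.014). The distance is on the log2 scale over 6 libraries, and with 2 groups it mostly reflects a like fold change among 9672 candidate genes.

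Of 93 genes in 8 lists around the pathway, 84 were tested, of which 39 rose, 37 fell and 8 did not pass, with a median log2 fold change of 0.091; with the correction 31 were higher, 35 lower and 18 did not pass (median -0.0042). These shares are near those of all tested genes, of which 44.3% rose and 45.0% fell, or 40.0% and 40.4% with the correction. Among 13 tested genes of folate uptake, retention and interconversion, 7 rose and 4 fell (median 0.18, corrected 0.053, -0.13 with library size alone). The corrected counts were 5 higher and 2 lower. The plasma membrane folate carrier SLC19A1 rose from 27.2 ± 0.373 to 56.5 ± 0.597 CPM (1.05, 0.62 corrected), and FPGS, which adds the glutamate tail that retains folate in the cell, rose (1.06), but did not pass with the correction (0.053; edgeR adjusted p = 0.0782). SLC25A32, which carries folate into mitochondria, fell from 70.3 ± 2.91 to 33.1 ± 2.02 CPM (-1.08, -0.54 corrected). ALDH1L1, which oxidises formyl-folate in the cytosol, had 0.072 and did not pass (-0.44 corrected). FOLR2, ALDH1L2 and FTCD had too few reads to test.

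In the glycine cleavage system, which feeds carbon from glycine to folate, AMT rose (1.01), but did not pass with the correction (0.27; edgeR adjusted p = 0.21). DLD fell (-1.07, -0.25 corrected). GCSH fell (-0.18, -0.16 corrected), but did not pass with DESeq2 (adjusted p = 0.082) or without siPRMT1 replicate 2 (edgeR adjusted p = 0.0571). GLDC had too few reads to test. Among 15 genes of serine transport and use, 7 rose and 5 fell (median 0.19, 0.078 corrected, -0.13 with library size alone). These counts stand beside 44.3% and 45.0% of all tested genes. The corrected counts were 8 higher and 5 lower, beside 40.0% and 40.4% of all genes. The transporter genes SLC38A2 (-1.75, -0.68 corrected) and SLC38A1 (-1.03, 0.078 corrected, where it passed as higher) fell, and so did SPTLC1 (-2.08, -1.52 corrected), a subunit of the enzyme that condenses serine with palmitoyl-CoA. PTDSS2, a phosphatidylserine synthase gene, rose (1.11, 0.20 corrected). SLC1A4 (0.19), SLC38A5 (0.44) and SDS (0.13) did not pass. With the correction SLC1A4 (0.28) passed as higher and SDS (-0.89) as lower, and SLC38A5 (-0.42) did not pass.

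Genes of the methionine cycle and transsulfuration, which use folate carbon to make S-adenosylmethionine and homocysteine to make cysteine, fell in 7 of 9 tested cases and rose in 1 (median -0.88), beside 45.0% and 44.3% of all tested genes. With the correction 6 were lower and 2 higher (median -0.52), beside 40.4% and 40.0% of all genes. S-adenosylmethionine is the methyl donor of PRMT1 and of most other methyltransferases. MAT2B, the regulatory subunit of its synthase, fell from 119.9 ± 0.917 to 33.1 ± 2.2 CPM (-1.86, -1.50 corrected). MAT2A, the catalytic subunit, moved little, from 227 ± 5.03 to 216 ± 4.82 CPM (-0.073), and passed as higher with the correction (0.13). AHCYL1 (-0.89, -0.53 corrected) and AHCYL2 (-1.09, -0.52 corrected), relatives of the hydrolase for S-adenosylhomocysteine, fell. CTH, which makes cysteine from cystathionine, went from 17.7 ± 0.582 to 5.60 ± 0.597 CPM (-1.65, -1.53 corrected). AHCY, the hydrolase itself, was the member that rose (0.44), but it passed as lower with the correction (-0.21), and GNMT (0.57, -0.67 corrected) did not pass. MTAP, a gene that MDA-MB-231 cells are known to have lost, CBS and BHMT2 had no read in any library, which allows up to 3 counts in each, or 0.146 to 0.177 CPM without TMM scaling (counting error only). CBS has a near-identical copy in GRCh38, CBSL, so its value is uncertain. MAT1A and BHMT had too few reads to test.

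Purine synthesis, which takes 2 carbons of each ring from formyl-folate, had 7 genes that rose and 6 that fell of 13 (median 0.11, 0.053 corrected, -0.21 with library size alone). Corrected, 5 were higher and 4 lower, beside 40.0% and 40.4% of all genes. Of all tested genes 44.3% rose and 45.0% fell. PPAT, the first committed enzyme, fell from 37.5 ± 1.02 to 8.15 ± 0.467 CPM (-2.20, -1.35 corrected) and ADSS2 fell (-1.60, -1.05 corrected), while IMPDH2 (1.10, 0.47 corrected) and IMPDH1 (0.91) of guanylate synthesis rose. IMPDH1 did not pass with the correction (0.073; edgeR adjusted p = 0.0636). Of 10 genes of thymidylate and deoxynucleotide supply, 4 rose and 6 fell (median -0.34, -0.12 corrected), beside 44.3% and 45.0% of all tested genes. The correction left 1 higher and 7 lower, and 2 did not pass, beside 40.0% higher and 40.4% lower of all genes. DCK, which phosphorylates deoxycytidine, fell from 50.5 ± 0.222 to 7.48 ± 0.685 CPM (-2.76, -2.0 corrected), and RRM2B, a ribonucleotide reductase subunit, fell as well (-2.23, -1.0 corrected). DTYMK, the kinase that follows TYMS, rose (0.89), but passed as lower with the correction (-0.28).

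Among 11 transcription factors and cofactors with known links to the pathway, 6 rose and 4 fell (median 0.078, 0.014 corrected, -0.24 with library size alone). Corrected, 5 were higher and 5 lower. Of all tested genes 44.3% rose and 45.0% fell. ATF4 transcripts rose from 111 ± 2.39 to 276 ± 8.95 CPM (1.32, 0.56 corrected) and DDIT3 rose (1.09, 0.40 corrected), and MYC fell (-0.83, -0.63 corrected). NFE2L2 (0.012) did not pass, but passed as higher with the correction (0.32). Of 10 ATF4 targets outside the pathway 6 rose and 3 fell (median 0.83, 0.32 corrected), beside 44.3% and 45.0% of all tested genes. With the correction 5 were higher and 4 lower, beside 40.0% and 40.4% of all genes. NUPR1 (1.73, 2.10 corrected) and SLC3A2 (0.82, -0.086 corrected, where it passed as lower) rose. The cystine and amino acid transporter genes SLC7A11 (-2.20, -0.64 corrected) and SLC7A5 (-0.77, -1.21 corrected) fell, and STC2 (0.17, 0.38 corrected) did not pass. Of 4 enzyme genes picked here as ATF4 targets, PHGDH (1.03, 0.11 corrected, not passing) and SHMT2 (0.94, 0.25 corrected) rose and PSAT1 (-1.01, -0.81 corrected) and MTHFD2 (-0.53, 0.25 corrected, passing as higher) fell. The choice of these 4 leaves out MTHFD1L, which held the ATF4 element and did not pass (-0.11), and PSPH, which fell (-0.33, -0.56 corrected). Without the correction those 10 genes ranged from -2.20 to 1.73, wide enough to hold all 9 enzymes.

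**Figure D4:**
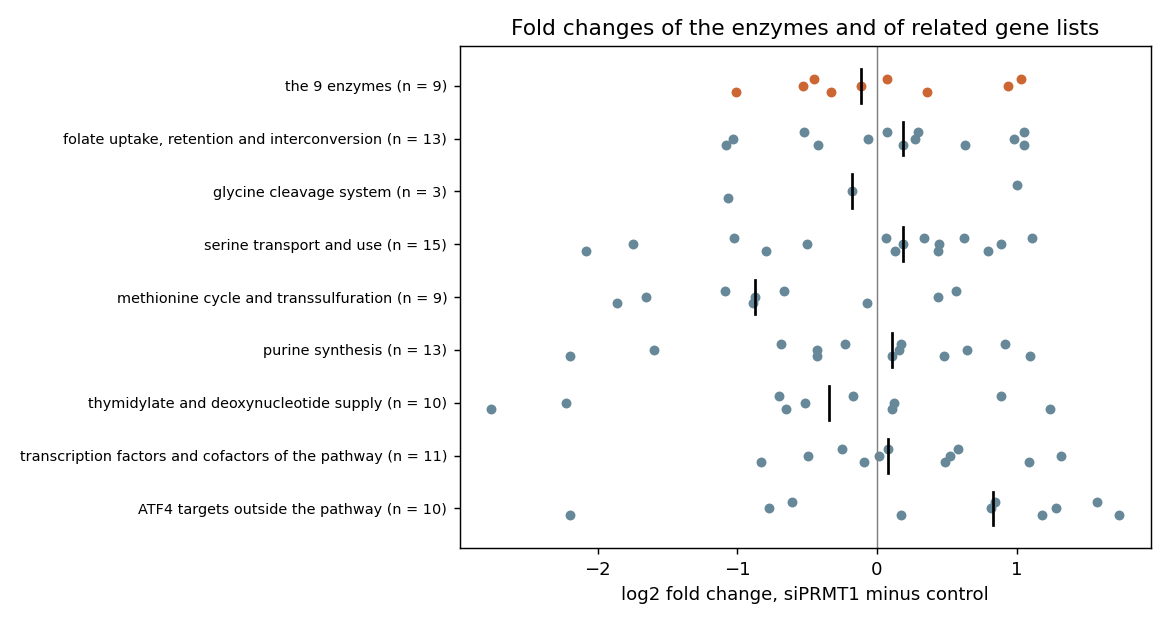
Log2 fold changes (siPRMT1 minus control) of the 9 enzymes and of 8 related lists; each point is a tested gene and the black bar is the list's median. The median was lowest for the methionine cycle and transsulfuration (-0.88) and highest for ATF4 targets outside the pathway (0.83), and the 9 enzymes spread from -1.01 to 1.03.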

How the data were processed

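Total RNA from 6 samples of 1 cell line was sequenced as stranded mRNA libraries, per the labels' protocols. Per the submitters' processing notes, the build was hg38 and the tools were edgeR 3.40.2, Subread 1.5.1 with featureCounts, STAR 2.7.6a and fastp 0.23.2, with no roles stated. The annotation, the strand setting and how duplicates were treated are not given. The deposited table holds raw counts of reads for each gene, as whole numbers, and a column of gene lengths. Samples were grouped by their titles.

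Counts were tested in R 4.3.3 with edgeR 4.0.16 (filterByExpr, TMM, glmQLFit, glmQLFTest, Benjamini-Hochberg adjustment over 13710 genes, threshold 0.05), after the script was tested on simulated data. Standard errors are the fold change over the root of its F statistic, and CPM are TMM-scaled. GC content and length are those of the canonical transcript in GENCODE 44; their trend was removed per sample with splines of 5 degrees of freedom, followed by TMM on the corrected values. Within-library ratios were tested by exact permutation. The named genes were PRMT1, the 9 enzymes, the genes of the ratios, up to 4 members of each list with the smallest adjusted p, all list members that did not pass, and the nearest gene to each enzyme among genes of at least 10 CPM. A few genes that this rule or the marker lists name are not reported here, but stay in the counts and adjustments. Genes printed with overlaps, the AHCY and MAT2A genes, markers and untested members were added after their values were seen. The enzymes, lists and tests were chosen with earlier results of these data known. Alternatives were RLE and upper-quartile scaling, no scaling beyond library size, no filter, at least 1 CPM in 3 samples, the replicate block, the correction with and without that block, leaving out each sample, and 2 other tools, DESeq2 1.42.0 and voom in limma 3.58.1.

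Within groups, pairs of libraries differed slightly beyond sampling noise (chi-square over degrees of freedom 1.05 to 1.38), so none were merged. The edgeR common dispersion of 9.77e-05 is the lowest its search allows.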

Additional observations from a re-analysis of the deposited data

How the results depend on the processing

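PSAT1, PSPH, SHMT2 and TYMS kept their direction and stayed past the threshold in all 16 alternatives, with log2 fold changes from -1.33 to -0.81, -0.64 to -0.29, 0.25 to 0.96 and -0.86 to -0.43. The other 5 enzymes depended on the setting. With library size alone SHMT1 was 0.045 and no longer passed, MTHFD1 reversed to -0.24, MTHFD1L passed at -0.43, and 2 enzymes in place of 4 rose. MTHFD1 no longer passed with upper-quartile scaling (0.025), where MTHFD1L passed (-0.16). MTHFD1L also passed with no filter (-0.13), with at least 1 CPM in 3 samples (-0.11) and in 2 of the 6 fits that left out 1 library, where it ranged from -0.14 to -0.085. With the GC and length correction PHGDH no longer passed (0.11) and MTHFD2 reversed to 0.25; with the correction and the replicate block the values were 0.096 for PHGDH, 0.25 for MTHFD2 and 0.086 for SHMT1, which no longer passed. The cause of these changes was not tested.

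The replicate number gave no pairing: deviations of same-numbered libraries correlated at -0.010, 0.037 and 0.0015. The replicate block alone changed no call among the 9 enzymes, and 12219 genes passed with it against 12243 without. No fit that left out 1 library changed a direction among the 9 enzymes, and the 8 ratios kept theirs with 1 read added and with the block. Because the groups did not overlap, leaving out 1 library could not reverse a ratio, and a balanced block could not either. These checks therefore say little about the ratios. The GC and length correction gave -0.0038 for SHMT2/MTHFD2 (1.46 without it) and 0.072 for MTHFD2/MTHFD1 (-0.59 without it). For MTHFD1L/MTHFD2 it gave -0.36 (0.41 without it), and the others of the 8 kept their direction.

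Among the other genes named by the rule, the GC and length correction reversed CHST11 (0.20; 0.20 with the block), RNH1 (-0.17; -0.17), CEP78 (0.90; 0.90), ALDH1L1 (-0.44; -0.45), SLC38A1 (0.078; 0.079), SLC38A5 (-0.42; -0.43), SDS (-0.89; -0.91), GNMT (-0.67; -0.66), DTYMK (-0.28; -0.28) and SLC3A2 (-0.086; -0.087). It also reversed AHCY (-0.21), MAT2A (0.13) and ENOSF1 (0.60). TK1, FPGS, AMT, IMPDH1 and DEF6 no longer passed with the correction (0.043, 0.053, 0.27, 0.073 and 0.13). MAP3K14 no longer passed with DESeq2 (-0.11) or in 4 of the 6 fits that left out 1 library, APTX with library size alone (0.027) and DCAF8 with upper-quartile scaling (0.029). Library size alone reversed DCAF8 (-0.24), ALDH1L1 (-0.24), SLC1A4 (-0.13), SDS (-0.18), NFE2L2 (-0.30) and STC2 (-0.15), and the medians of folate uptake (-0.13), serine transport (-0.13), purine synthesis (-0.21) and transcription factors (-0.24). NFE2L2 also reversed with upper-quartile scaling (-0.035) and no filter (-0.00049), and fits that left out 1 library ranged from -0.15 to 0.36 for ALDH1L1 and from -0.13 to 0.29 for SDS. Of the 9 enzymes PHGDH had the fewest reads, with 28 to 60 counts a library. The lengths of the deposited table, an alternative chosen after seeing the data, moved the rank of 6 of the 9 genes among control levels.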
